A study of Mus musculus with 20 samples.

Results

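The coagulation and fibrinolysis genes of mouse liver were described here as a list of 36 symbols, chosen by name from the clotting cascade, its inhibitors and the plasmin system. All 36 matched a row of the deposited table of 54532 genes. A gene was tested when it reached 2 CPM (counts scaled to a common library total) in at least 3 of the 20 mice. This kept 34 of the 36 members and 12289 of all genes. The protein C inhibitor gene *Serpina5*, at no more than 0.386 CPM in any mouse, and *Plat*, which encodes tissue plasminogen activator, at no more than 1.57 CPM, were not tested. All CPM values given here are normalized, with library sizes scaled by TMM factors.

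The samples were livers of male C57BL/6 mice that had all first eaten a high-fat diet (HFD) over 12 weeks until obese and then received Roux-en-Y gastric bypass (RYGB), which joins a small gastric pouch to the jejunum, or sham surgery. After surgery the mice were kept for 8 weeks on chow or HFD, which gave 4 groups of 5 mice with 1 library per mouse (RYGB HFD, Sham HFD, RYGB Chow and Sham Chow). Every group therefore carried the earlier HFD, and the chow groups were mice switched from HFD to chow rather than mice that had never been obese. The mice were drawn at random from a larger cohort, and their age is not given in the sources used here. The paper reports that body weight was higher in Sham HFD than in each of the other groups. Body weight therefore cannot be told apart from surgery in Sham HFD vs. RYGB HFD, or from diet in Sham Chow vs. Sham HFD. The surgery by diet interaction shares this limit.

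Hepatocytes make most of the plasma proteins of hemostasis. In the cascade, proteases activate each other in turn until thrombin cuts soluble fibrinogen, a protein of paired alpha, beta and gamma chains, into fibrin. Serpins such as antithrombin and the protein C system restrain the proteases, and plasmin, made from plasminogen, dissolves the clot. Factor VIII, von Willebrand factor, thrombomodulin and tissue factor pathway inhibitor are known mainly as products of endothelial cells.

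Between 14604854 and 22537498 reads per mouse were counted (median 19056997). A single model of the 4 groups was fitted with edgeR's quasi-likelihood test, with Benjamini-Hochberg adjustment over all tested genes, and a gene was called at an adjusted p-value under 0.05. Each log2 fold change is the second group of the named pair over the first. In bulk liver, fewer cells of a type and less RNA per cell cannot be told apart. The hepatocyte markers *Alb*, *Apoa1*, *Ttr* and *Ahsg* were abundant in every mouse, and the 7 hepatocyte markers found in the table summed to between 75502 and 126362 CPM. RYGB Chow replicate 3 had the lowest hepatocyte marker sum of its group (79457 CPM, beside 90111 to 126362 in the others) and the highest sum of 10 Kupffer cell and macrophage markers (569 CPM, beside 235 to 334). Most members were at their lowest of the group in this mouse. Among them were *Fga*, *Fgb*, *Fgg*, *F2*, *F7*, *F9*, *F10*, *F11*, *F12*, *Klkb1*, *Hrg*, *Serpinc1*, *Serpind1*, *Plg* and *Serpinf2*. *Fgl1*, *F8*, *Thbd* and *Vkorc1* were instead at their highest of the group. Its TMM factor, 1.13, was the highest of any library. The part of the markers and of the scaling in these levels was not tested.

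On HFD, surgery went with higher expression of most liver-made clotting genes. In Sham HFD vs. RYGB HFD, 20 of the 34 members rose and 0 fell, where 8.54% of all tested genes were higher and 7.9% lower. At an unadjusted p-value under 0.05, 26 members differed, of which *Plau* alone was lower, beside 30.7% of all tested genes. All 5 RYGB HFD mice lay above all 5 Sham HFD mice for 23 of the 34 members, and the groups did not overlap in this direction for 7.25% of all tested genes and in either for 14.7%. The median log2 fold change was 0.32 for the members and 0.01 for all tested genes. On chow, 0 of the 34 members passed in Sham Chow vs. RYGB Chow, with edgeR, DESeq2 or limma-voom, where 0.057% of all tested genes passed with edgeR. Before adjustment 3 members did (*Fgl1*, *Pros1* and *Pzp*), which is 3 of 34 beside 10.8% of all tested genes, and 0 members had groups that did not overlap (1.33% of all tested genes).

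The diet comparisons differed between the sham and the RYGB mice. In Sham Chow vs. Sham HFD, 9 members fell and 2 rose, where 10.7% of all tested genes were lower and 10.9% higher, and the groups did not overlap for 7 members (16.5% of all tested genes). In RYGB Chow vs. RYGB HFD, 12 members rose and 0 fell, where 1.99% of all tested genes were higher and 1.65% lower. Before adjustment 18 members passed, all of them higher, beside 18.8% of all tested genes. The groups did not overlap for 13 members, all higher in RYGB HFD, where 2.64% of all tested genes were so placed and 5.05% did not overlap in either direction. The difference between these diet effects, tested as the surgery by diet interaction, passed for 13 members, all of them positive, where 2.48% of all tested genes passed in that direction and 2.58% in the other. Positive means that the signed log2 change from chow to HFD was higher in the RYGB mice, and not that it was larger in size: *F10* changed by -0.49 in the sham mice and 0.10 in the RYGB mice, and *Kng1* by -0.49 and 0.21. Before adjustment 22 members passed, beside 20.8%. The medians over the 34 members were -0.20 in the sham mice, 0.25 in the RYGB mice and 0.39 for the interaction, where those of all tested genes lay between -0.01 and 0.02. The contrasts share groups and so are not independent of each other.

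**Figure D1:**
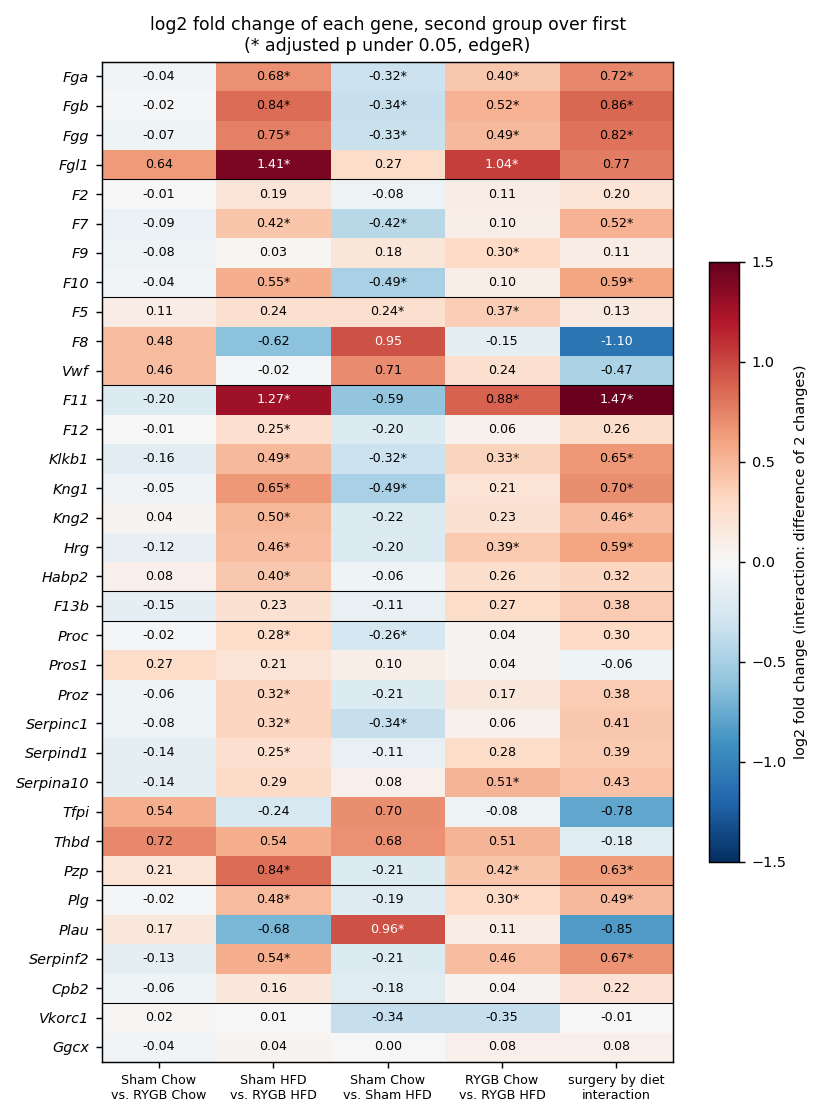
Log2 fold change of each of the 34 kept members (rows, grouped by role) in the 4 contrasts and the surgery by diet interaction (columns), with the value printed in each cell and an asterisk at an adjusted p-value under 0.05. The columns of Sham HFD vs. RYGB HFD and RYGB Chow vs. RYGB HFD hold 20 and 12 asterisks, all on values above 0, and that of Sham Chow vs. RYGB Chow holds 0.

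The 3 fibrinogen chains changed together. *Fga*, *Fgb* and *Fgg* encode the alpha, beta and gamma chains and lie side by side on chromosome 3 (GRCm38, bases 83007724 to 83049863, 42.1 kb). Per kilobase of exon they were the most abundant members, at a mean of 1410.1 CPM per kb for *Fgg*, 1305 for *Fga* and 1021 for *Fgb* over the 20 mice. Together they held 1.39% ± 0.0914 (SD, n = 5) of all counts in RYGB HFD, and 0.877% ± 0.0900 in Sham HFD. In Sham Chow they held 1.01% ± 0.127 and in RYGB Chow 1.01% ± 0.0762.

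*Fgb* measured 4831, 5346, 5477, 4983 and 5628 CPM in the 5 RYGB HFD mice. It measured 2685, 3411, 2811, 2957 and 2819 CPM in Sham HFD, 4061, 3186, 4263, 3420.4 and 3601 CPM in Sham Chow and 3325, 3995, 3297, 3528 and 4162 CPM in RYGB Chow. Every RYGB HFD mouse was above every mouse of the other groups, and 4 of 5 Sham HFD mice were below every Sham Chow mouse. The log2 fold change was 0.84 ± 0.09 (standard error) in Sham HFD vs. RYGB HFD (edgeR, adjusted p = 8.67e-06), 0.52 ± 0.09 in RYGB Chow vs. RYGB HFD (adjusted p = 0.00365) and -0.34 ± 0.09 in Sham Chow vs. Sham HFD (adjusted p = 0.0152). In Sham Chow vs. RYGB Chow it was -0.02 ± 0.09 (adjusted p = 0.97).

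*Fga* measured 4856, 4859, 4973, 4339.6 and 5826 CPM in RYGB HFD, and 2992, 3698, 2871, 3084 and 2885 CPM in Sham HFD. *Fgg* measured 3445, 3726, 4203, 3738 and 4198 CPM in RYGB HFD, and 2245, 2713, 2173, 2239 and 2135 CPM in Sham HFD. For both genes the RYGB HFD mice lay above all Sham HFD and all RYGB Chow mice, and Sham HFD replicate 2 was the highest of its group. Their log2 fold changes in Sham HFD vs. RYGB HFD were 0.68 ± 0.10 for *Fga* and 0.75 ± 0.10 for *Fgg*, in RYGB Chow vs. RYGB HFD 0.40 ± 0.10 and 0.49 ± 0.10, and in Sham Chow vs. Sham HFD -0.32 ± 0.10 and -0.33 ± 0.10 (edgeR, adjusted p between 4.08e-05 and 0.0321). The counts of *Fgb* per count of *Fga* had a median of 0.959 in Sham HFD (0.897 to 0.979) and 1.10 in RYGB HFD (0.966 to 1.15), which overlapped. The decrease in Sham Chow vs. Sham HFD was not called for any of the 3 chains without Sham Chow replicate 3, with adjusted p-values of 0.0902 for *Fga*, 0.0515 for *Fgb* and 0.0661 for *Fgg*. Of the 20 fits that left out 1 mouse, 14 kept this call for *Fga*, 19 for *Fgb* and 16 for *Fgg*. With library size only in place of TMM factors, the decrease was not called for any of the chains. In RYGB Chow vs. RYGB HFD, *Fga* lost its call in 7 of 20 fits that left out 1 mouse, with the highest adjusted p-value, 0.0748, without RYGB HFD replicate 5.

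The 250 bases before the start of each chain's transcript are shown because these neighbouring genes moved together in 3 contrasts. They were taken from RefSeq (GRCm38.p6), on the strand of the gene, and distances are from the RefSeq start. The end of the *Fga* window lies inside the gene as annotated in GENCODE M21, which starts at base 83026076. Capitals mark matches, on either strand, to the C/EBP motif TTGCNNAA or to the IL-6 response element CTGGGAA, both known from promoters of acute-phase genes.
Fga, chr3:83025903-83026152, plus strand: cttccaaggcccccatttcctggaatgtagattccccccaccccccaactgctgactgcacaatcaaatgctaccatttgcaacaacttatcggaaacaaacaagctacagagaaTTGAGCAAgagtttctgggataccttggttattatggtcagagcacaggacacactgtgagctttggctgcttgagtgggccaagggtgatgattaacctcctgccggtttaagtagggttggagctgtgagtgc
Fgb, chr3:83049864-83050113, minus strand: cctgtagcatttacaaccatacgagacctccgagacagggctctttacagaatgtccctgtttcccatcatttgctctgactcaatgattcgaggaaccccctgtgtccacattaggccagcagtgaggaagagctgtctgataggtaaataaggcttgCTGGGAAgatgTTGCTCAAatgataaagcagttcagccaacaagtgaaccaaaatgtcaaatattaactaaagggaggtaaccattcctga
Fgg, chr3:83007474-83007723, plus strand: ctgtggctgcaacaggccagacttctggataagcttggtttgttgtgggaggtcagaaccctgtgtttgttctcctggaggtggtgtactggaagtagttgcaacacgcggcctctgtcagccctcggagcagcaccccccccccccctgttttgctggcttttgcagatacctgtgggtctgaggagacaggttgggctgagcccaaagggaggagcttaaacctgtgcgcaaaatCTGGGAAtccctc
The C/EBP match stood 135 to 128 bases before the start in *Fga* and 80 to 73 in *Fgb*, where an IL-6 response element match stood at 91 to 85, and the match in *Fgg* stood 13 to 7 bases before the start. Of 32536 promoter windows of this length, 9.57% held TTGCNNAA and 9.14% held CTGGGAA. Of the 27 listed members with a window in RefSeq, 10 held the first and 4 the other. Members were counted as genes with a match in any of their windows, and the shares above are of single windows. The HNF1 motif was in the windows of *F13b* and *Habp2* and in 0.375% of all windows, and the HNF4 motif CAAAGTCC was in 0 member windows and in 1.2% of all. The matches shown do not overlap each other. A match is a run of letters and not a measured binding site.

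**Figure D2:**
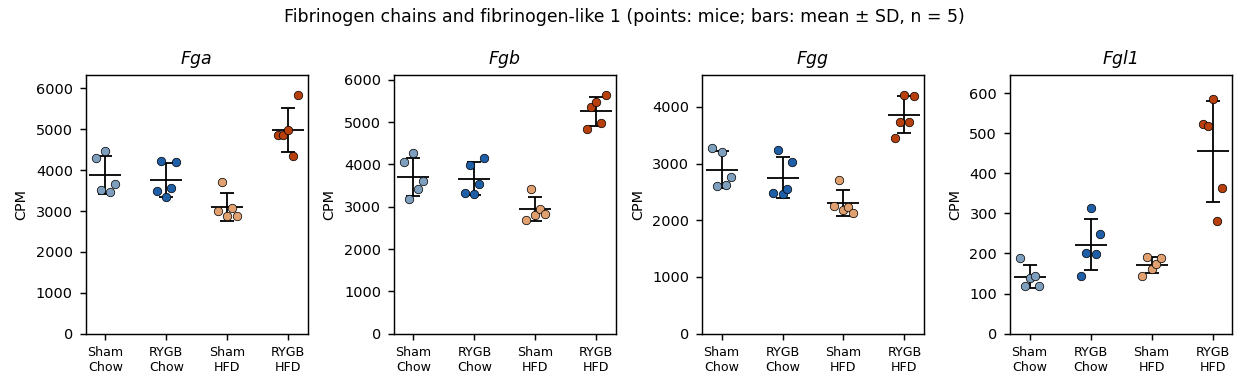
Normalized expression (CPM, vertical axes starting at 0) of *Fga*, *Fgb*, *Fgg* and *Fgl1* in the 5 mice of each group (points), with the mean and SD (bars). For *Fgb* and *Fgg* the RYGB HFD mice sit above all other mice, for *Fga* the lowest of them (4339.6 CPM) is below the highest Sham Chow mouse (4461 CPM), and for the 3 chains Sham HFD is lowest on average, while *Fgl1* is lowest on average in Sham Chow.

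*Fgl1*, which encodes a liver-secreted relative of fibrinogen, followed the chains in RYGB HFD but not in Sham HFD. It measured 523, 518, 586, 281 and 364 CPM in RYGB HFD and 145, 201, 314, 199 and 248 CPM in RYGB Chow, so that 4 of 5 RYGB HFD mice lay above all RYGB Chow mice. Its log2 fold change there was 1.04 ± 0.20 (edgeR, adjusted p = 0.00433), and between the sham groups it was 0.27 ± 0.19 (adjusted p = 0.339). The interaction did not pass for *Fgl1* (0.77 ± 0.27, adjusted p = 0.109), while it did for *Fga* (0.72 ± 0.15, adjusted p = 0.00704), *Fgb* (0.86 ± 0.13, adjusted p = 0.0012) and *Fgg* (0.82 ± 0.14, adjusted p = 0.00234).

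All 7 genes of the contact pathway and its binding proteins rose in Sham HFD vs. RYGB HFD. This arm starts clotting at surfaces and releases bradykinin. *F11* encodes factor XI and *F12* factor XII, *Klkb1* encodes plasma prekallikrein, *Kng1* and *Kng2* the kininogens, *Hrg* histidine-rich glycoprotein, which binds plasminogen and heparin, and *Habp2* a hyaluronan-binding protease that activates factor VII.

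*F11* had the largest difference on HFD of the members that encode proteases. It measured 103, 146, 118, 127 and 125 CPM in RYGB HFD and 52.4, 49.3, 37.1, 56.4 and 61.3 CPM in Sham HFD. It measured 71.4, 39.6, 89.9, 98.0 and 88.6 CPM in Sham Chow and 78.3, 84.6, 29.5, 77.9 and 66.5 CPM in RYGB Chow. The RYGB HFD mice lay above all 15 other mice, and in each chow group 1 mouse, Sham Chow replicate 2 and RYGB Chow replicate 3, was well below the rest. The log2 fold change was 1.27 ± 0.24 in Sham HFD vs. RYGB HFD (edgeR, adjusted p = 0.000899), a 2.41-fold difference, and 0.88 ± 0.23 in RYGB Chow vs. RYGB HFD (adjusted p = 0.0383). Leaving out RYGB HFD replicate 2 gave the latter an adjusted p-value of 0.0813, and the call was kept in 12 of the 20 fits without 1 mouse. In Sham Chow vs. Sham HFD it was -0.59 ± 0.23 and not called (adjusted p = 0.0732). The interaction, 1.47 ± 0.33 (adjusted p = 0.0136), was the largest of any member.

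*Klkb1*, the paralog of *F11*, lies next to it on chromosome 8 (GRCm38, bases 45241174 to 45294859 for both genes, 53.7 kb). It measured 225, 242, 229, 247 and 224 CPM in RYGB HFD, 181, 149.9, 167, 174 and 156 CPM in Sham HFD and 193, 199.8, 204, 220.1 and 219 CPM in Sham Chow. These 3 groups did not overlap, with RYGB HFD highest and Sham HFD lowest. In RYGB Chow it measured 178, 203, 149, 171 and 229 CPM, which overlapped each of them. Its log2 fold changes were 0.49 ± 0.09 in Sham HFD vs. RYGB HFD (edgeR, adjusted p = 0.000851), -0.32 ± 0.09 in Sham Chow vs. Sham HFD (adjusted p = 0.0155) and 0.33 ± 0.09 in RYGB Chow vs. RYGB HFD (adjusted p = 0.0476). The last of these was called in 4 of 20 fits that left out 1 mouse and reached an adjusted p-value of 0.107 without RYGB Chow replicate 4. The log2 ratio of *F11* to *Klkb1* was -1.71 ± 0.30 (SD, n = 5) in Sham HFD, -0.92 ± 0.14 in RYGB HFD, -1.49 ± 0.49 in Sham Chow and -1.54 ± 0.51 in RYGB Chow, so the neighbours did not keep a fixed ratio. Of the exon bases of *Klkb1*, 43.2% are shared with the gene model Gm45753 on the same strand, and how such reads were counted is not given in the sources used here.

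The windows before the starts of these genes are shown for comparison with the fibrinogen chains, with matches to TTGCNNAA in capitals.
F11, chr8:45262032-45262281, minus strand: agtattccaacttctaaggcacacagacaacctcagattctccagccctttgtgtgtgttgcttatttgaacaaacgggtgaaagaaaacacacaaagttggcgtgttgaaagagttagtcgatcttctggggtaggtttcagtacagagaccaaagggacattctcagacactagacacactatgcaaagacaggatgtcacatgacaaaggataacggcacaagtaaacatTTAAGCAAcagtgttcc
Klkb1, chr8:45294836-45295085, minus strand: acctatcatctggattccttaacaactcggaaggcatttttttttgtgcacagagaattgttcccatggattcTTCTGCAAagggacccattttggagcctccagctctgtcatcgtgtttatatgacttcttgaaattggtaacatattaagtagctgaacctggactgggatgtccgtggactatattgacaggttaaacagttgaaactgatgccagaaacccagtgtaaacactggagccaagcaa
The match stood 17 to 10 bases before the RefSeq start in *F11* and 177 to 170 in *Klkb1*. The end of the *Klkb1* window lies inside the gene as annotated in GENCODE M21, which reaches base 45294859. Neither window held CTGGGAA, CAAAGTCC or the HNF1 motif.

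*Kng1* was the most abundant gene of the contact arm, with a mean of 611 CPM per kb of exon. It measured 1498, 1605, 1447, 1424 and 1479 CPM in Sham HFD and between 2044 and 2674 CPM in RYGB HFD. On chow, it lay between 1903 and 2235 CPM after sham surgery and between 1847 and 2330.2 CPM after RYGB. All 5 Sham HFD mice lay below all other mice. Its log2 fold change was 0.65 ± 0.08 in Sham HFD vs. RYGB HFD (edgeR, adjusted p = 2.71e-05) and -0.49 ± 0.08 in Sham Chow vs. Sham HFD (adjusted p = 0.000388), and 0.21 ± 0.08 in RYGB Chow vs. RYGB HFD, which did not pass (adjusted p = 0.172). *Kng2* measured between 221 and 273 CPM in Sham HFD and between 311 and 402 CPM in RYGB HFD, which did not overlap, and its log2 fold change was 0.50 ± 0.08 (adjusted p = 0.000394). The kininogens are close copies of each other, so that reads may have been split between them and their separate values are uncertain. With *Hrg* they lie on chromosome 16 (GRCm38, bases 22951072 to 23082078).

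*Hrg* measured 894, 906, 982, 917 and 973 CPM in RYGB HFD, above all mice of the other groups, which reached at most 854 CPM in Sham Chow, 815 CPM in RYGB Chow and 757 CPM in Sham HFD. It rose by 0.46 ± 0.10 on the log2 scale against Sham HFD (edgeR, adjusted p = 0.00274) and by 0.39 ± 0.10 against RYGB Chow (adjusted p = 0.032), a call lost in 7 of 20 fits without 1 mouse, up to an adjusted p-value of 0.0766 without RYGB HFD replicate 3. *Habp2* rose by 0.40 ± 0.08 against Sham HFD (adjusted p = 0.00128), with 182 to 204 CPM in RYGB HFD and 137 to 162 CPM in Sham HFD. *F12* had the smallest difference of the arm, 0.25 ± 0.08 (adjusted p = 0.0432). It was called in 6 of 20 fits without 1 mouse, with an adjusted p-value of 0.126 without Sham HFD replicate 1, and not with RLE factors, library size only, no filter or a filter of 5 CPM.

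**Figure D3:**
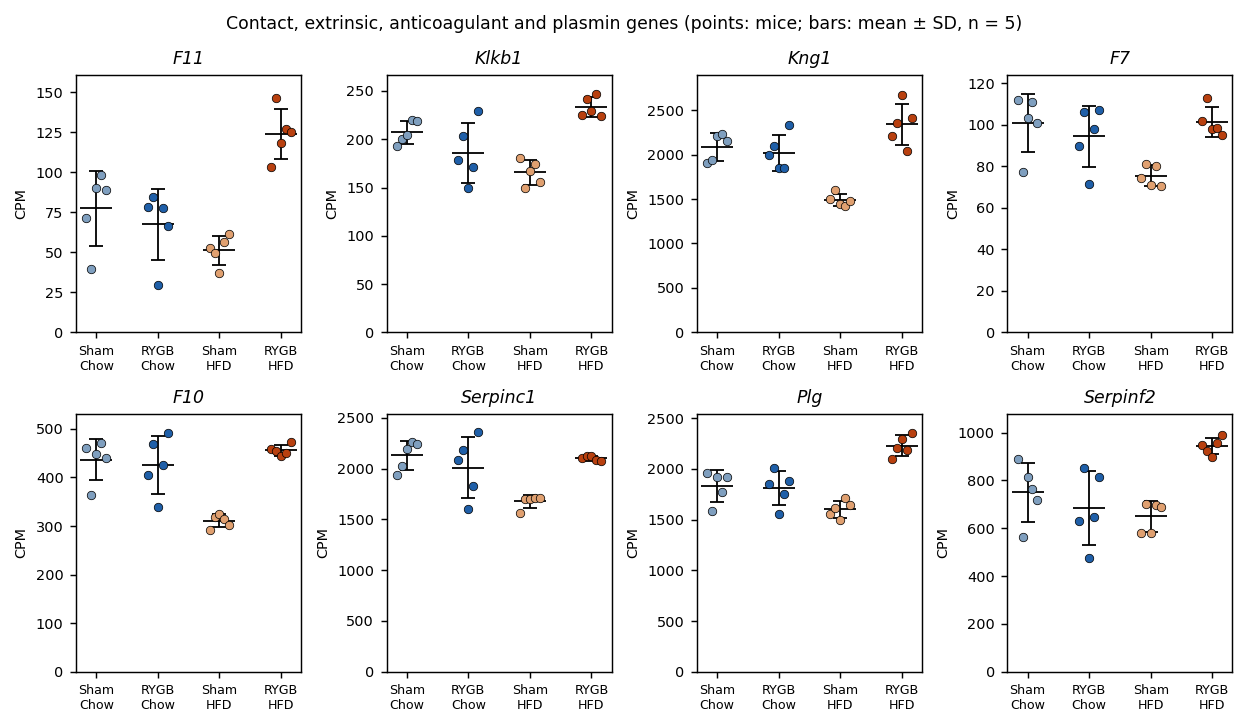
Normalized expression (CPM, vertical axes starting at 0) of 8 members in the 5 mice of each group (points), with the mean and SD (bars). In *F11*, *Klkb1*, *Plg* and *Serpinf2* the RYGB HFD mice have the highest mean, and in *F10* and *Kng1* all Sham HFD mice lie below all others.

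Of the vitamin K-dependent clotting proteases, *F7* and *F10* were called in both contrasts with Sham HFD, and *F2* and *F9* in neither (edgeR). Factor VII starts the extrinsic pathway with tissue factor, factor X makes thrombin from the prothrombin that *F2* encodes, and factor IX is the protease that works with factor VIII. *F10* measured 292, 319, 325, 315 and 302 CPM in Sham HFD and 459, 454, 444, 451 and 474 CPM in RYGB HFD. The chow groups lay between 363 and 471 CPM and between 339 and 491 CPM, so that every Sham HFD mouse lay below every mouse of the other groups. Its log2 fold change was 0.55 ± 0.09 in Sham HFD vs. RYGB HFD (edgeR, adjusted p = 0.000189), -0.49 ± 0.09 in Sham Chow vs. Sham HFD (adjusted p = 0.000532) and 0.10 ± 0.09 in RYGB Chow vs. RYGB HFD (adjusted p = 0.584).

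*F7*, which lies beside *F10* and *Proz* on chromosome 8 (GRCm38, bases 13026034 to 13076026), measured 74.3, 81.2, 71.0, 80.1 and 70.5 CPM in Sham HFD and 102, 113, 97.7, 98.6 and 95.0 CPM in RYGB HFD. These groups did not overlap, and 3 of 5 Sham HFD mice lay below all Sham Chow mice. The log2 fold changes were 0.42 ± 0.11 between the HFD groups (edgeR, adjusted p = 0.00821) and -0.42 ± 0.11 in Sham Chow vs. Sham HFD (adjusted p = 0.00811). The interaction passed for *F10* (0.59 ± 0.12, adjusted p = 0.00806), and for *F7* it was near the threshold (0.52 ± 0.15, adjusted p = 0.0474) and was lost in 17 of 20 fits without 1 mouse, with the highest adjusted p-value, 0.0937, without RYGB HFD replicate 2.

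*F2* lay between 1780 and 1954 CPM in RYGB HFD and between 1417 and 1769 CPM in Sham HFD. These mice did not overlap (exact permutation test, two-sided p = 0.00794, the smallest that 5 mice against 5 allow), yet the log2 fold change of 0.19 ± 0.07 did not pass the adjustment (edgeR, adjusted p = 0.0874). *F9* had its highest group means on HFD, with 226 to 248 CPM in Sham HFD and 220 to 265 CPM in RYGB HFD, and lay between 181 and 204 CPM in RYGB Chow. It rose in RYGB Chow vs. RYGB HFD, by 0.30 ± 0.08 (adjusted p = 0.0355), with no overlap, and the call was lost in 8 of 20 fits, up to an adjusted p-value of 0.0976 without RYGB HFD replicate 3. In Sham HFD vs. RYGB HFD the log2 difference was 0.03 ± 0.08 (adjusted p = 0.809).

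*F5*, which encodes factor V, the cofactor of factor X, rose on HFD in sham and in RYGB mice. It measured 573 to 613 CPM in 4 Sham Chow mice and 523 CPM in the other one, 631 to 730.3 CPM in Sham HFD, 535 to 692 CPM in RYGB Chow and 728 to 912 CPM in RYGB HFD. Neither pair of diet groups overlapped. The log2 fold changes were 0.24 ± 0.08 (edgeR, adjusted p = 0.0412) and 0.37 ± 0.08 (adjusted p = 0.0162), and the interaction was 0.13 ± 0.12 (adjusted p = 0.58). The call between the sham groups was lost in 8 of 20 fits, up to an adjusted p-value of 0.0996 without Sham Chow replicate 4, and that between the RYGB groups without RYGB HFD replicate 3 (adjusted p = 0.0502). *F5* missed the threshold in Sham HFD vs. RYGB HFD (0.24 ± 0.08, adjusted p = 0.0507).

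The members known from endothelial cells were low and scattered, and none of them was called in any contrast by edgeR in the model of 4 groups. DESeq2, and edgeR scaled by library size only, called *Vwf* and *Tfpi* higher in Sham HFD than in Sham Chow, and a fit of only these groups called *F8* and *Tfpi* higher. *F8* measured 35.0, 17.7, 16.7, 37.6 and 27.1 CPM in Sham HFD and 22.6, 6.72, 8.36, 20.9 and 28.7 CPM in RYGB HFD. On chow, it measured 22.6, 11.4, 9.02, 16.7 and 9.58 CPM in the sham mice and 25.3, 14.8, 28.1, 23.4 and 4.98 CPM in the RYGB mice. The groups overlapped in all contrasts, and the range within RYGB Chow was wider than any difference between group means. The interaction was -1.10 ± 0.58 (edgeR, adjusted p = 0.294).

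*Vwf*, the carrier of factor VIII, averaged 7.42 ± 1.74 CPM (SD, n = 5) in Sham HFD, 7.33 ± 2.90 in RYGB HFD, 6.19 ± 1.69 in RYGB Chow and 4.54 ± 1.79 in Sham Chow. *Tfpi*, the inhibitor of the factor VII complex, lay between 5.02 and 7.28 CPM in Sham Chow and between 7.81 and 12.3 CPM in Sham HFD. These mice did not overlap, but the log2 fold change of 0.70 ± 0.27 did not pass (edgeR, adjusted p = 0.071). *Thbd*, which encodes thrombomodulin, the receptor that turns thrombin to protein C, ranged from 0.922 to 12.3 CPM within RYGB HFD, wider than the difference of any group means.

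The sum of 12 endothelial markers, among them *Pecam1*, *Cdh5* and *Stab2*, varied with these genes from mouse to mouse. It was 218 CPM in RYGB Chow replicate 5, 307 CPM in RYGB HFD replicate 2 and 235 CPM in RYGB HFD replicate 3, and between 349 and 726 CPM in the other mice. The same 3 mice held the lowest *F8* and *Tfpi* levels of their groups. None of the 12 markers was at 0 in all mice, and 0 of the 12 were called in any of the contrasts (edgeR). At unadjusted p-values under 0.05, 2 of them differed in Sham HFD vs. RYGB HFD and 1 in Sham Chow vs. Sham HFD. The part of these markers in the values was not tested.

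**Figure D4:**
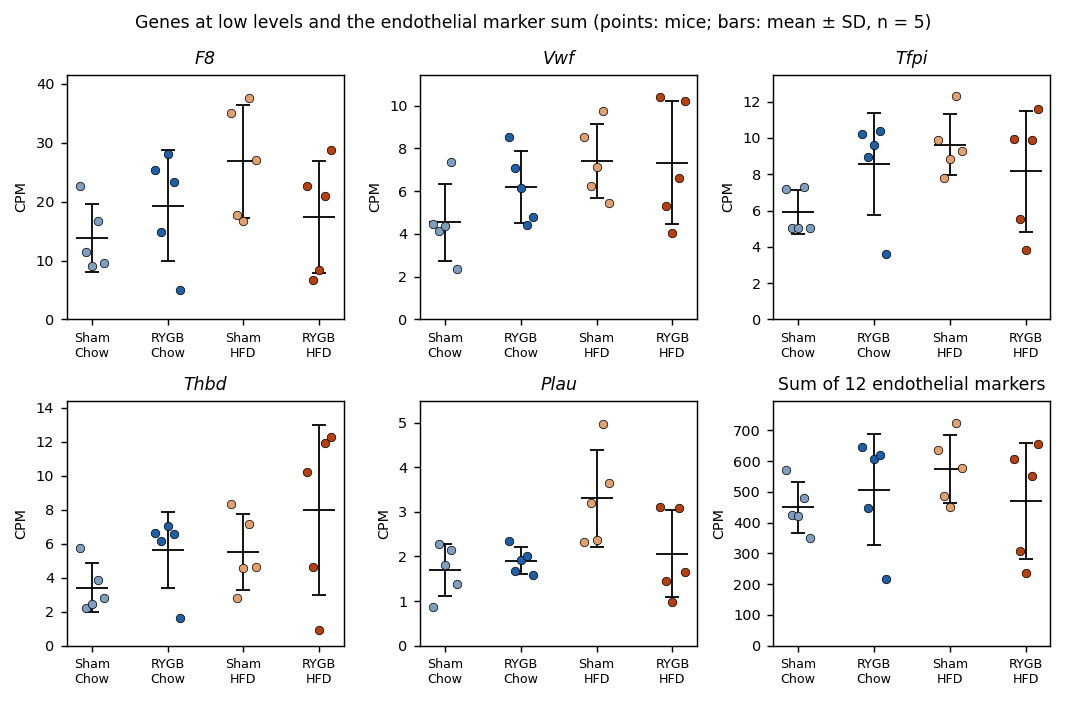
Normalized expression (CPM, vertical axes starting at 0) of *F8*, *Vwf*, *Tfpi*, *Thbd* and *Plau*, and the summed CPM of 12 endothelial markers, in the 5 mice of each group (points), with the mean and SD (bars). RYGB Chow replicate 5 and RYGB HFD replicates 2 and 3 are the low points in *F8*, *Tfpi* and the marker sum.

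*F13b*, which encodes the carrier subunit of the factor that crosslinks fibrin, was not called in any contrast in the model of 4 groups, but was called higher in RYGB HFD than in Sham HFD in a fit of only these groups. It lay between 245 and 272 CPM in RYGB HFD, above all Sham HFD mice (203 to 230.3 CPM) and all RYGB Chow mice (165 to 237 CPM). Its log2 fold changes of 0.23 ± 0.09 and 0.27 ± 0.09 had adjusted p-values of 0.083 and 0.104 (edgeR).

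Among the 9 kept anticoagulants and their cofactors, 5 rose in Sham HFD vs. RYGB HFD and 0 fell. *Serpinc1* encodes antithrombin, the main inhibitor of thrombin and factor X. It measured 1564, 1699, 1706, 1716 and 1714 CPM in Sham HFD, 2107, 2125, 2128, 2081 and 2077 CPM in RYGB HFD and 1941, 2024, 2192, 2260.2 and 2244 CPM in Sham Chow. The Sham HFD mice were below all mice of Sham Chow and RYGB HFD, which overlapped each other. RYGB Chow lay between 1598 and 2357 CPM and overlapped each of these groups. The log2 fold changes were 0.32 ± 0.08 in Sham HFD vs. RYGB HFD (edgeR, adjusted p = 0.0117), -0.34 ± 0.09 in Sham Chow vs. Sham HFD (adjusted p = 0.00699) and 0.06 ± 0.08 in RYGB Chow vs. RYGB HFD (adjusted p = 0.747). Of its exon bases 34.4% are shared with *Zbtb37* on the opposite strand, and whether the counting used strand is not given in the sources used here.

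*Proc*, which encodes protein C, lay between 387 and 434 CPM in Sham HFD and between 464 and 538 CPM in RYGB HFD, and rose by 0.28 ± 0.08 on the log2 scale (edgeR, adjusted p = 0.0236). It fell in Sham Chow vs. Sham HFD (-0.26 ± 0.08, adjusted p = 0.0287). These calls were lost in 4 and 7 of 20 fits without 1 mouse, with the highest adjusted p-values 0.0758 without RYGB HFD replicate 2 and 0.0683 without Sham Chow replicate 5. *Pros1*, which encodes its cofactor protein S, was not called in any contrast and averaged between 62.2 and 77.3 CPM. *Proz* encodes protein Z, the cofactor of the inhibitor that *Serpina10* encodes, and together they act on factor X. *Proz* rose by 0.32 ± 0.08 in Sham HFD vs. RYGB HFD (adjusted p = 0.011), with 307 to 338 CPM against 379.8 to 436 CPM.

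*Serpina10* was highest in RYGB HFD, at 245, 246, 251, 196 and 187 CPM, where all 5 mice were above the RYGB Chow mice (131 to 185 CPM) and overlapped the Sham HFD mice (163 to 218 CPM). It rose in RYGB Chow vs. RYGB HFD (0.51 ± 0.10, edgeR, adjusted p = 0.00702) and missed the threshold in Sham HFD vs. RYGB HFD (0.29 ± 0.10, adjusted p = 0.0529). With only the 2 RYGB groups in the fit, the rise was not called. *Serpind1*, heparin cofactor II, differed by 0.25 ± 0.09 in Sham HFD vs. RYGB HFD (adjusted p = 0.0478), without overlap of 477 to 519 CPM with 574 to 616 CPM. Its call was kept in 5 of 20 fits without 1 mouse, and the adjusted p-value reached 0.112 without Sham HFD replicate 3.

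*Pzp*, an alpha-2-macroglobulin family protein that traps proteases, was the most abundant inhibitor, at a mean of 787 CPM per kb of exon. It measured 6475, 6361, 8613, 6141 and 6642 CPM in RYGB HFD, and at most 4865 CPM in Sham Chow, 5598 CPM in RYGB Chow and 4048 CPM in Sham HFD. It was called in Sham HFD vs. RYGB HFD (0.84 ± 0.09, edgeR, adjusted p = 6.34e-06) and in RYGB Chow vs. RYGB HFD (0.42 ± 0.09, adjusted p = 0.0143). It was not called in Sham Chow vs. Sham HFD (-0.21 ± 0.09, adjusted p = 0.113) or Sham Chow vs. RYGB Chow (0.21 ± 0.09, adjusted p = 0.399). The interaction passed (0.63 ± 0.13, adjusted p = 0.00806). RYGB HFD replicate 3 was the highest, and without each mouse in turn the change between the RYGB groups ran from 0.32 to 0.46 and stayed called. With only the 2 groups in the fit it was not called.

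In the plasmin system, the proenzyme and its main inhibitor rose together in Sham HFD vs. RYGB HFD. *Plg*, which encodes plasminogen, measured 2097, 2209, 2299.7, 2186 and 2357 CPM in RYGB HFD and 1554, 1612, 1495, 1715 and 1644 CPM in Sham HFD. The RYGB HFD mice lay above the mice of every other group. Of its exon bases 11.3% are shared with *Slc22a3* on the opposite strand. The log2 fold change was 0.48 ± 0.08 (edgeR, adjusted p = 0.000262), and in RYGB Chow vs. RYGB HFD it was 0.30 ± 0.08 (adjusted p = 0.033), a call lost in 7 of 20 fits with an adjusted p-value of up to 0.0771 without RYGB HFD replicate 3. *Serpinf2*, which encodes alpha-2-antiplasmin, measured 949, 924, 899, 958 and 992 CPM in RYGB HFD and 579, 701, 579.7, 697 and 691 CPM in Sham HFD. These groups too did not overlap, and the log2 fold change was 0.54 ± 0.13 (adjusted p = 0.00727). In RYGB Chow vs. RYGB HFD it was 0.46 ± 0.13 and not called (adjusted p = 0.0535).

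The log2 ratio of *Plg* to *Serpinf2* averaged 1.31 ± 0.09 in Sham HFD and 1.24 ± 0.08 in RYGB HFD (SD, n = 5). The ratio of *Fgb* to *Plg* averaged 0.87 ± 0.13 in Sham HFD and 1.24 ± 0.04 in RYGB HFD, on the log2 scale of CPM. It averaged 1.01 ± 0.09 in Sham Chow and 1.01 ± 0.11 in RYGB Chow. Fibrinogen beta chain transcripts thus differed more between the HFD groups than plasminogen transcripts did.

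*Cpb2*, which encodes a carboxypeptidase that protects fibrin from plasmin, lay between 245 and 249 CPM in Sham HFD and between 249 and 321 CPM in RYGB HFD, with a log2 difference of 0.16 ± 0.10 (edgeR, adjusted p = 0.292), although the mice did not overlap before rounding. *Plau*, which encodes urokinase, an activator of plasminogen, was near the limit of the filter. It measured 2.32, 3.19, 2.37, 4.97 and 3.64 CPM in Sham HFD and 0.869, 2.28, 1.80, 2.14 and 1.39 CPM in Sham Chow, without overlap. It was called higher in Sham HFD (0.96 ± 0.31, edgeR, adjusted p = 0.0311), but all 5 Sham HFD mice and 2 or 3 mice of each other group reached the 2 CPM of the filter. Without Sham HFD replicate 4 the adjusted p-value was 0.0949. *Plat*, the other activator, averaged 0.988 ± 0.461 CPM in Sham HFD and between 0.216 and 0.394 CPM in the other groups, and was not tested.

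The vitamin K cycle genes were not called in any contrast. *Ggcx*, the carboxylase that modifies the vitamin K-dependent factors, averaged 65.5 ± 6.34 CPM in RYGB HFD, 63.5 ± 1.31 in Sham HFD, 63.6 ± 3.26 in Sham Chow and 62.0 ± 5.26 in RYGB Chow. Its log2 difference in Sham HFD vs. RYGB HFD was 0.04 ± 0.07 (edgeR, adjusted p = 0.72). *Vkorc1*, the vitamin K reductase that warfarin blocks, averaged between 8.30 and 10.7 CPM, and 47.7% of its exon bases are shared with the gene model Gm21974 on the same strand.

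Across the 34 kept members, 27 had their highest group mean in RYGB HFD and 21 their lowest in Sham HFD, and 18 had both. Of all 12289 tested genes, 25.2% had their highest mean in RYGB HFD, 34.1% their lowest in Sham HFD and 11.4% both. *F8*, *Vwf*, *Tfpi* and *Plau* had their highest mean in Sham HFD. The 10 members that edgeR called in none of the 4 contrasts in the model of 4 groups were *F2*, *F8*, *Vwf*, *F13b*, *Pros1*, *Tfpi*, *Thbd*, *Cpb2*, *Vkorc1* and *Ggcx*, with the calls of *F8*, *Vwf*, *Tfpi* and *F13b* by other fits given above.

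**Figure D5:**
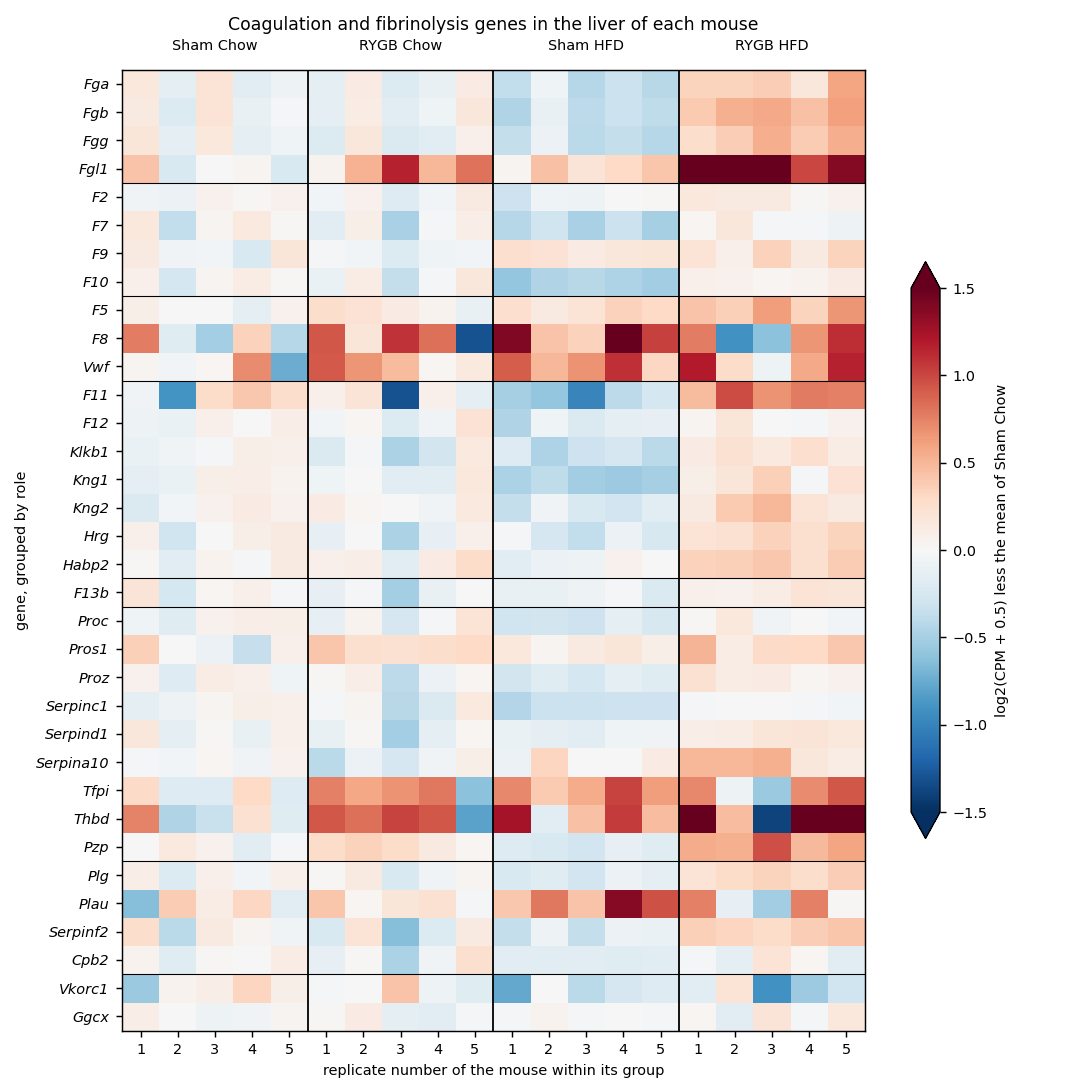
Log2(CPM + 0.5) of each kept member (rows, grouped by role) in each of the 20 mice (columns, by group), less the mean of the Sham Chow mice, with colours cut off at -1.5 and 1.5. Red is higher and blue lower. Of the 34 members, 27 have their highest group mean in RYGB HFD and 21 their lowest in Sham HFD, and *F8*, *Tfpi* and *Thbd* vary within groups.

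The other hemostasis genes, a list of 27 receptors, regulators and binding proteins of which 20 were tested, moved in both directions. In Sham HFD vs. RYGB HFD, 5 were higher and 4 lower, beside 8.54% and 7.9% of all tested genes. In Sham Chow vs. Sham HFD 7 were higher and 3 lower, beside 10.9% and 10.7%. In RYGB Chow vs. RYGB HFD 1 was higher and 0 lower, beside 1.99% and 1.65%. In Sham Chow vs. RYGB Chow 0 were called, and 2 passed before adjustment, beside 10.8% of all tested genes. *Anxa2* and *S100a10* encode the subunits of a cell-surface complex that binds plasminogen and its tissue activator. *Anxa2* averaged 54.6 ± 10.9 CPM in Sham HFD and 12.1 ± 2.58 in RYGB HFD, 8.03 ± 2.44 in Sham Chow and 9.29 ± 1.45 in RYGB Chow. Between the HFD groups its log2 fold change was -2.17 (standard error 0.19, edgeR, adjusted p = 5.37e-07), while that of *S100a10* was -1.07 (standard error 0.16, adjusted p = 0.000149). *Gas6*, a vitamin K-dependent ligand made outside the cascade, fell by 1.22 in the same contrast (standard error 0.22, adjusted p = 0.000729), from 96.6 ± 15.7 to 41.6 ± 17.3 CPM. *Vtn*, which encodes the liver-made plasma protein vitronectin, went with the clotting genes instead, from 1712 ± 62.8 to 2575 ± 37.3 CPM (log2 fold change 0.59 ± 0.07, adjusted p = 1.43e-05).

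Of 23 acute-phase genes, 9 rose and 2 fell in Sham HFD vs. RYGB HFD, beside 8.54% and 7.9% of all tested genes. In RYGB Chow vs. RYGB HFD 7 rose and 0 fell, beside 1.99% and 1.65%. In Sham Chow vs. Sham HFD 8 rose and 2 fell, beside 10.9% and 10.7%. In Sham Chow vs. RYGB Chow 0 were called, and 8 passed before adjustment, beside 10.8% of all tested genes. *C3*, the central complement component, took the course of the fibrinogen chains, with 9648 ± 1154 CPM in RYGB HFD, 4735 ± 267 in Sham HFD, 7129 ± 1072 in RYGB Chow and 6578 ± 735 in Sham Chow. *Itih3*, which encodes a heavy chain of the inter-alpha inhibitor, averaged 1247 ± 255 CPM in RYGB HFD and between 584 and 675 CPM elsewhere. *Lcn2* and *Saa2*, iron-binding lipocalin 2 and serum amyloid A2, were highest on average in Sham HFD instead, at 20.7 ± 8.27 and 39.6 ± 16.1 CPM, and *Saa2* fell in Sham HFD vs. RYGB HFD (-1.37 ± 0.43, edgeR, adjusted p = 0.0318). *Saa2* has close copies, so its value is uncertain.

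Of 12 hepatocyte transcription factors known to act on clotting genes, *Hnf4a* was higher and *Esr1* lower in Sham HFD vs. RYGB HFD. These calls made up 8.33% of the list in each direction, close to the 8.54% higher and 7.9% lower of all tested genes. Between the sham groups 1 was higher on HFD and 3 lower (8.33% and 25%), beside 10.9% and 10.7%. Between the RYGB groups 0 were called and 2 passed before adjustment, beside 18.8% of all tested genes. Between the chow groups 0 were called and 0 passed before adjustment, beside 10.8%. *Hnf4a* averaged 802 CPM in RYGB Chow, 761 in RYGB HFD, 733 in Sham Chow and 543 in Sham HFD, with log2 fold changes of 0.49 ± 0.13 in Sham HFD vs. RYGB HFD (edgeR, adjusted p = 0.0166) and -0.43 ± 0.13 in Sham Chow vs. Sham HFD (adjusted p = 0.0267). *Cebpa* and *Foxa3* also fell in the latter, by 0.30 and 0.56 on the log2 scale (adjusted p = 0.0156 and 0.0369), and *Esr1* rose from 11.5 to 19.6 CPM (0.77 ± 0.23, adjusted p = 0.0204).

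Some cell type markers were called in both contrasts with Sham HFD and in the interaction. In RYGB Chow vs. RYGB HFD, 0 hepatocyte, endothelial, Kupffer cell or stellate cell markers were called. Before adjustment 3 hepatocyte markers and 1 stellate cell marker passed there, beside 18.8% of all tested genes. Of all tested genes, 8.54% were higher and 7.9% lower in Sham HFD vs. RYGB HFD. The shares were 10.9% and 10.7% in Sham Chow vs. Sham HFD, and 2.48% and 2.58% in the interaction. Of the 7 hepatocyte markers tested, 4 were higher (*Alb*, *Apoa1*, *Ahsg* and *Hnf4a*) and *Ttr* lower in Sham HFD vs. RYGB HFD, and 3 were lower in Sham Chow vs. Sham HFD. The 7 summed to between 75502 and 88514 CPM in Sham HFD, 103971 and 124105 in RYGB HFD, 84718 and 104529 in Sham Chow and 79457 and 126362 in RYGB Chow. Relative to *Alb*, the log2 level of *Fgb* averaged -4.35 ± 0.13 in Sham HFD, -3.99 ± 0.12 in RYGB HFD, -4.26 ± 0.25 in Sham Chow and -4.45 ± 0.30 in RYGB Chow (SD, n = 5). On this scale *Fgb* was highest in RYGB HFD, and Sham Chow and Sham HFD differed by less than the SD. Of 9 stellate cell and fibroblast markers tested, 8 rose in Sham Chow vs. Sham HFD and 5 fell in Sham HFD vs. RYGB HFD, with sums of 229 to 331 CPM in Sham Chow, 429.6 to 491 in Sham HFD, 305 to 438 in RYGB HFD and 303 to 348 in RYGB Chow. Of 10 Kupffer cell and macrophage markers, 7 were higher in Sham HFD than in Sham Chow and 0 differed in Sham HFD vs. RYGB HFD, with sums of 113 to 300.1 CPM in Sham Chow, 278 to 375 in Sham HFD, 246 to 444 in RYGB HFD and 235 to 569 in RYGB Chow. Between the chow groups 0 of these 10 were called (edgeR). At unadjusted p-values under 0.05, 9 were higher in RYGB Chow, where 10.8% of all tested genes differed in either direction. The interaction was called lower for 4 stellate cell and fibroblast markers and 1 Kupffer cell and macrophage marker, and higher for 2 hepatocyte markers. The 7 platelet markers summed to between 3.72 and 7.19 CPM in every mouse, with *Gp1bb* at 0 in all. The part of the other cell types in the results was not tested.

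Of the calls in Sham HFD vs. RYGB HFD, 17 of 20 were kept in each of the 20 fits that left out 1 mouse, and so were 10 of the 13 in the interaction. The diet contrasts depended more on single mice. In RYGB Chow vs. RYGB HFD the 12 calls became 5 without RYGB HFD replicate 3, 6 without RYGB HFD replicate 5, RYGB Chow replicate 3 or RYGB Chow replicate 4, and 7 without RYGB Chow replicate 1 or RYGB HFD replicate 1. In Sham Chow vs. Sham HFD the 11 calls became 5 without Sham Chow replicate 3, 6 without Sham HFD replicate 5 and 7 without Sham HFD replicate 3. With library size only in place of TMM factors, the median of all genes moved by 0.13 in that contrast and by -0.14 in the interaction, and its calls became 5 higher and 4 lower instead of 2 and 9.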

How the data were processed

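Liver poly-A RNA of 20 mice was sequenced as strand-marked paired-end libraries. Per the labels, the authors trimmed reads with Trimmomatic 0.36, checked them with FastQC, aligned them to mm10 with HISAT2 2.1.0 and counted them per gene with featureCounts 1.5.0-p3. They deposited raw counts, with no normalization. The annotation release, the strand setting and how reads with several matches were treated are not given in the sources used here, and read pairs without molecular identifiers need not be independent molecules.

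Genes were named with GENCODE M21 (54495 of 54532 had a symbol), and genes at 2 CPM or more in at least 3 mice were tested (12289). edgeR 4.0.16 (R 4.3.3) fitted a quasi-likelihood model of the 4 group means with TMM factors (0.916 to 1.13), with Benjamini-Hochberg adjustment over all tested genes. The exact permutation test on log2(CPM + 0.5) was two-sided over 252 splits. The steps were tested on simulated counts. Alternatives were DESeq2 1.42.0, limma-voom (limma 3.58.1), no filter or one of 5 CPM, factors by RLE or by library size only, only the 2 groups, a replicate block and leaving out each mouse. Promoters came from RefSeq (GRCm38.p6). Figures were drawn with matplotlib 3.10.9. No 2 libraries held identical values. P-values measure the spread between mice.

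The members and the other gene lists were chosen with earlier results of these data known, and genes the study picked from these samples are among them, so their direction is not independent evidence. The text names every kept member, and up to 4 genes each of the other hemostasis, acute-phase and transcription factor lists. The latter were those with the smallest adjusted p-values under 0.05 (edgeR) in any of the 4 contrasts. They were thus picked from these data and need not be typical of their lists. Of the cell type marker lists it names some markers.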

Additional observations from a re-analysis of the deposited data

Results flagged for a closer look

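In 9 of the 136 groups of 5 mice examined (34 members in 4 groups), a single mouse stood apart from the other 4 by more than Dixon's critical value of 0.71. Chance flags about 1 in 20 groups, which is 6.8 of 136. In Sham HFD, replicate 2 was highest for *Fga* (3698 CPM) and *Fgg* (2713 CPM), and replicate 1 was lowest for *Serpinc1* (1564 CPM). In RYGB Chow, replicate 3 was lowest for *F9* (181 CPM) and highest for *Vkorc1* (14.1 CPM), and replicate 5 was lowest for *Tfpi* (3.62 CPM) and *Thbd* (1.64 CPM), the mouse with the lowest sum of endothelial markers (218 CPM). In Sham Chow, replicate 2 was lowest for *F10* (363 CPM), and in RYGB HFD, replicate 3 was highest for *Pzp* (8613 CPM).

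The diet effect differed between sham and RYGB mice by the interaction test of edgeR for 13 members. The log2 difference between the diet effects was 1.47 for *F11*, 0.86 for *Fgb*, 0.82 for *Fgg*, 0.72 for *Fga* and 0.70 for *Kng1*. It was 0.67 for *Serpinf2*, 0.65 for *Klkb1*, 0.63 for *Pzp*, 0.59 for *F10* and *Hrg*, 0.52 for *F7*, 0.49 for *Plg* and 0.46 for *Kng2*.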

How the results depend on the processing

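No called member changed its direction under any alternative run. The counts of called members moved by over 1.5 times in the diet contrasts only. In Sham Chow vs. Sham HFD the 11 calls became 7 with no filter and, without each mouse in turn, 5 to 14. In RYGB Chow vs. RYGB HFD the 12 calls became 7 with no filter and, without each mouse in turn, 5 to 13. With only the 2 groups in the fit they became 3. *Fga*, *F5*, *F9*, *F11*, *Klkb1*, *Hrg*, *Plg*, *Pzp* and *Serpina10* were lost there, and *Fgb*, *Fgg* and *Fgl1* were kept. The 20 calls in Sham HFD vs. RYGB HFD ran from 17 to 22 and the 13 of the interaction from 10 to 17 without each mouse, and in Sham Chow vs. RYGB Chow 0 were called in each fit. For the surgery contrast on HFD, the diet contrasts of sham and of RYGB mice and the interaction, in this order, DESeq2 called 22, 16, 15 and 16 members and limma-voom 20, 11, 13 and 14. With no filter more genes were tested, and with only the 2 groups fewer mice entered the fit. With library size only, Sham Chow vs. Sham HFD had 5 members higher and 4 lower, where the median of all genes moved by 0.13. Relative to it the median over the members was -0.19.

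Replicate numbers did not pair the mice. Same-numbered mice of different groups correlated with r between -0.257 and 0.165 in their deviations, over 0.1 in 5 of 30 pairs, and 3 of 20 mice matched their own number best. A replicate block gave 19, 10, 10 and 11 calls in the same order, and 0 in Sham Chow vs. RYGB Chow. *Serpina5* and *Plat* had at most 8 and 34 counts in a mouse and were not tested.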
